A study of Mus musculus with 15 samples.

Results

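The genes described are 10 genes of the nuclear lamina and inner nuclear membrane whose products hold chromatin at the nuclear periphery: Lmna, Lmnb1, Lmnb2, Lbr, Tmpo, Banf1, Sun1, Sun2, Tmem120a and Tmem120b. They were taken by gene number from the deposited count tables, in which each of the 10 was found among 26301 gene numbers. RNA-seq was performed on 3T3-L1 cells, a mouse preadipocyte line, on day 2 of differentiation in medium with 115 ug/mL IBMX, 1 uM dexamethasone and 1.67 uM insulin, in 15 libraries of 5 conditions with 3 replicates each. Control cells (sh-Empty) had been infected with a retrovirus that expresses no hairpin, and JMJD1A-KD cells (sh-Jmjd1a) with one that expresses a short hairpin RNA against Jmjd1a (Kdm3a), the gene for the iron-dependent H3K9 demethylase JMJD1A. In the rescue set, cells that carried the sh-Jmjd1a hairpin were also infected to express LacZ, JMJD1A(WT) or JMJD1A(H1122A), the mutant defective in iron coordination, both JMJD1A forms being resistant to the hairpin. The lines were selected with antibiotics after infection. Neither the labels nor the study's methods say that replicates came from separate infections or cultures, so p-values measure the spread between these samples, which may be technical.

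The nuclear lamina is a meshwork of lamin filaments under the inner nuclear membrane, and large silent stretches of the genome, the lamina-associated domains, lie against it. Lamins A and C are both made from Lmna by alternative splicing, and lamins B1 and B2 come from Lmnb1 and Lmnb2. Lamin B receptor (Lbr), membrane-bound LAP2 forms (Tmpo), the DNA-bridging factor BAF (Banf1) and the TMEM120 proteins connect chromatin or the lamina to the membrane. SUN1 and SUN2 pass through the membrane to couple the nucleus to the cytoskeleton. The TMEM120 proteins are known for a part in adipocyte differentiation. Counts were made per gene, so lamins A and C, and the LAP2 forms, were each measured as a sum.

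The libraries held 11437058 to 25523148 counts in total (median 12916162), and JMJD1A(WT) replicate 3 was the deepest. The targeted gene, Kdm3a, was at 171, 174 and 185 CPM (counts scaled by TMM to the library size) in sh-Empty cells and at 129, 128 and 138 CPM in sh-Jmjd1a cells, a fall of 25.4% (edgeR quasi-likelihood test, Benjamini-Hochberg adjusted p = 2.91e-08). In the rescue set it was at 119 ± 2.62 CPM (SD, n = 3) with LacZ, 1690 ± 69.0 CPM with JMJD1A(WT) and 2200 ± 92.2 CPM with JMJD1A(H1122A), and the mutant exceeded the wild type by 1.30-fold (adjusted p = 3.94e-12, edgeR). All 8 preadipocyte and fibroblast markers had at least 947 counts in every library. The 5 macrophage markers summed to 2.33 to 4.05 CPM in sh-Empty, 1.21 to 2.18 CPM in sh-Jmjd1a and 0.99 to 2.74 CPM in the rescue libraries, with Cd68 at 10 to 45 counts, Csf1r at most 13 and Itgam at most 5, while Ptprc and Adgre1 had at most 1 count. The 5 endothelial markers summed to 0.583 to 1.15 CPM in sh-Empty, 0.785 to 1.01 CPM in sh-Jmjd1a and at most 1.54 CPM in the rescue libraries. The 5 epithelial markers summed to 1.64 to 2.64 CPM in sh-Empty and 0.484 to 0.959 CPM in sh-Jmjd1a libraries, and Krt19, at most 34 counts, was called lower on knockdown (−1.85 on the log2 scale). In the rescue set they summed to 0.333 to 1.20 CPM with LacZ, 0.622 to 1.62 CPM with JMJD1A(WT) and 0 to 0.146 CPM with JMJD1A(H1122A). The 5 skeletal muscle markers summed to at most 0.469 CPM, with Myod1, Myog and Ckm at 0 counts in every library. The source of these low marker counts and their part in the results were not tested. The summed level of 8 adipocyte markers was 5190 to 5280 CPM in sh-Empty and 2650 to 2790 CPM in sh-Jmjd1a libraries. It was 3320 to 3410 CPM with LacZ, 3810 to 4160 CPM with JMJD1A(WT) and 2580 to 2680 CPM with JMJD1A(H1122A). In RNA from whole cultures, fewer cells of a type and less RNA per cell cannot be told apart.

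Per kilobase of exon, Lmna was the most abundant of the 10 genes in each of the 5 groups. In sh-Empty cells its level was 145 ± 4.02 CPM per kb (SD, n = 3). Tmem120a followed at 82.8 ± 6.15 CPM per kb and Banf1 at 72.6 ± 6.51 CPM per kb, and the libraries of this pair overlapped. Sun2 (24.6 CPM per kb), Sun1 (19.0), Lbr (15.7), Lmnb1 (11.6), Tmpo (11.3) and Lmnb2 (10.2) came next, and neighbours in this order were apart in every library except Lmnb1 with Tmpo and Tmpo with Lmnb2. Tmem120b was lowest, at 4.35 ± 0.215 CPM per kb, and its raw counts ran from 68 to 181 per library, the fewest reads behind any of the 10 genes. In sh-Jmjd1a cells Banf1, at 74.0 CPM per kb, stood above Tmem120a at 32.6 CPM per kb with no overlap, and Tmpo (18.5) stood above Sun2 (16.1). Banf1 also stood above Tmem120a without overlap in the LacZ, JMJD1A(WT) and JMJD1A(H1122A) libraries.

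**Figure D1:**
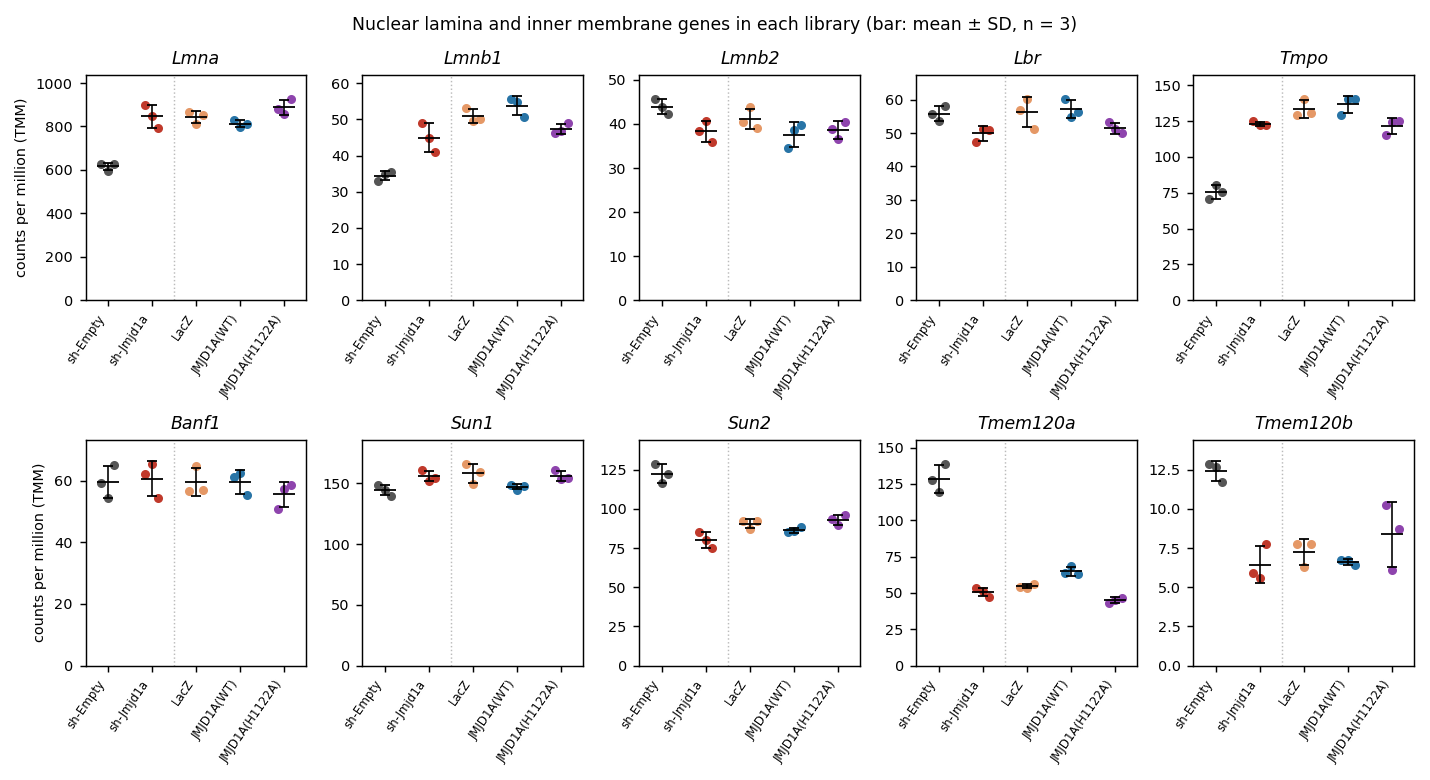
Level of each gene in the 15 libraries in TMM-scaled CPM (y axis, from 0), by group (x axis), with each point 1 library and bars the mean ± SD of 3. The sh-Empty libraries lie above the other groups for Tmem120a, Tmem120b and Sun2 and below them for Lmna, Lmnb1 and Tmpo. The dotted line parts the knockdown set from the rescue set, which were scaled apart.

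Promoter windows from RefSeq (GRCm38.p6) were at hand for 9 of the 10 genes, in 14 windows of 250 bases before and 50 bases after an annotated start, and each window was placed on NCBIM37, the assembly of mm9, by an exact match. The 250 bases before the start are shown for Tmem120a, Tmem120b and Sun2, which fell most on knockdown, and for Tmpo, which rose most. Capitals mark CCAAT boxes (CCAAT, or ATTGG on the other strand) and, in Sun2, a match to the cell cycle genes homology region, or CHR (TTTGAA or TTCGAA, here on the other strand as TTCAAA). The sequences run 5′ to 3′ on the strand of the gene, at chr5:136220043-136220292 (minus strand) for Tmem120a, chr5:123526034-123526283 (plus strand) for Tmem120b, chr15:79572967-79573216 (minus strand) for Sun2 and chr10:90634365-90634614 (minus strand) for Tmpo.
Tmem120a: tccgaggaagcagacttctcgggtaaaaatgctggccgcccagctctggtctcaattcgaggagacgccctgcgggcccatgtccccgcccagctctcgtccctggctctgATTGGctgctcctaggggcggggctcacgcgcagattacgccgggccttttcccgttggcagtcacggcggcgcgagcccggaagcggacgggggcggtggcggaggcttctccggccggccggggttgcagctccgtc
Tmem120b: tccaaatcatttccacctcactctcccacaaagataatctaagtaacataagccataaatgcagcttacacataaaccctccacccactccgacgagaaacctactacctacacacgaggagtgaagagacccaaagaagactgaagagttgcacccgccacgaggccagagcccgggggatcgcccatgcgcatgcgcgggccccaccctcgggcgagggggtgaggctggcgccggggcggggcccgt
Sun2: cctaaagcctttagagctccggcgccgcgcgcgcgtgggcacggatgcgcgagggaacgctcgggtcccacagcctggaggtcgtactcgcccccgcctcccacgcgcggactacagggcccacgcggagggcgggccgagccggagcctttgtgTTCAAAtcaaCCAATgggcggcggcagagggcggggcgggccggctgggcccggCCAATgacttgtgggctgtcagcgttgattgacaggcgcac
Tmpo: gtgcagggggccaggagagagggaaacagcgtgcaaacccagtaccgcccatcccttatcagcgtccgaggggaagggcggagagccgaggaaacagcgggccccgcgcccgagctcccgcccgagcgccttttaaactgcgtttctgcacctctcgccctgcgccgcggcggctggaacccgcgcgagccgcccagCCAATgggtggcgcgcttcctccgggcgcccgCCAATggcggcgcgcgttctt

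The paralogues Tmem120a and Tmem120b differed in this window. The Tmem120a window had a GC content of 69.0% and a CCAAT box that began 139 bases before the start, while the Tmem120b window had a GC content of 61.0% and no CCAAT box, against a median GC content of 52.7% over all 32851 windows. The Tmem120b window lies inside the GENCODE span of the gene, which begins at 123518424, and the Lmna windows also lie inside theirs. Sequence before those outer starts was not searched. Sun2 had CCAAT boxes 85 and 41 bases before its start and the CHR match 95 bases before it, and Tmpo had CCAAT boxes 53 and 21 bases before its start, with a CHR match 28 bases before a second annotated start. A CCAAT box was present in 8 of the 14 windows (57.1%), in 7 of the 9 genes, against 37.4% of all windows. A CHR match was present in 3 windows (21.4%), those of Lbr, Sun2 and the second Tmpo start, against 19.2% of all windows. The E2F letters TTTCGCGC or TTTGGCGC were in 0 of the 14 windows and in 0.813% of all windows. The letters AGGTCA, the element read by nuclear receptors such as PPARγ, were in windows of Lmna, Lmnb2 and Banf1 and in 16.3% of all windows, and 2 such elements in a row with 1 base between were in none of the 14 and in 0.0396% of all. Each motif was searched on both strands, and a match describes letters in the window, not a bound site.

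The first comparison asked how the envelope genes differ when JMJD1A is depleted. In JMJD1A-KD cells the transcripts of Tmem120a, Tmem120b and Sun2 fell, by 60.8%, 47.8% and 34.7%, and those of Tmpo, Lmna and Lmnb1 rose, by 63.4%, 37.4% and 30.1%. Of the 10 genes, 5 passed the test as lower and 3 as higher at an adjusted p under 0.05 (edgeR quasi-likelihood, Benjamini-Hochberg over 12272 genes), where 23.9% of all genes tested were called lower, 22.3% higher and 46.2% in either direction. The groups did not overlap for 9 of the 10 genes, against 53.0% of all genes. The median size of the log2 fold change, regardless of sign, was 0.42 over the 10 genes and 0.22 over all genes tested. The 5 genes with the largest changes lie, on NCBIM37, on chromosome 5 from 136211355 to 136220141 (Tmem120a, minus strand) and from 123518424 to 123567758 (Tmem120b, plus strand), on chromosome 10 from 90610316 to 90634759 (Tmpo, minus strand), on chromosome 15 from 79554500 to 79572966 (Sun2, minus strand) and on chromosome 3 from 88285070 to 88313878 (Lmna, minus strand).

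Tmem120a showed the largest change of the 10 genes. It was measured at 127, 120 and 139 CPM in the sh-Empty libraries and at 53.2, 51.4 and 47.4 CPM in the sh-Jmjd1a libraries. Every knockdown library lay below every control library, with a log2 fold change of −1.35 (SE 0.063, 95% interval −1.48 to −1.22, edgeR adjusted p = 1.71e-16). The study placed this gene on a list of genes that depend on JMJD1A, chosen on these samples. The list required lower expression on knockdown, higher with JMJD1A(WT) against LacZ and lower in JMJD1A(H1122A) against JMJD1A(WT). The direction and call of Tmem120a in these comparisons are therefore not independent of that choice.
Its paralogue Tmem120b was measured at 12.9, 12.7 and 11.7 CPM in sh-Empty and at 5.93, 5.57 and 7.77 CPM in sh-Jmjd1a cells. The groups were again apart, with a log2 fold change of −0.94 (SE 0.151, 95% interval −1.25 to −0.63, edgeR adjusted p = 7.99e-06). Exons of Tmem120b overlap those of Rhof on the opposite strand in the annotation, and reads from the overlap cannot be told apart where the counting ignored strand.

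The SUN pair differed in response. Sun2 was measured at 129, 117 and 122 CPM in sh-Empty and at 85.0, 80.1 and 75.1 CPM in sh-Jmjd1a cells, a log2 fold change of −0.61 (SE 0.056, edgeR adjusted p = 4.33e-10). Sun1 was measured at 148, 145 and 140 CPM in sh-Empty and at 161, 152 and 155 CPM in sh-Jmjd1a cells. The Sun1 libraries did not overlap either, but its log2 fold change of 0.11 (SE 0.046, 95% interval 0.02 to 0.21) narrowly missed the threshold (edgeR adjusted p = 0.0509), and it passed under 4 of the 8 other settings of the whole fit, with adjusted p from 0.0261 to 0.0783 over the 8.

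The A-type lamin gene and one B-type lamin gene rose together. Lmna was measured at 627, 596 and 626 CPM in sh-Empty and at 898, 849 and 793 CPM in sh-Jmjd1a cells, a log2 fold change of 0.46 (SE 0.042, edgeR adjusted p = 3.47e-10). Lmnb1 was measured at 32.9, 34.9 and 35.3 CPM in sh-Empty and at 48.9, 44.8 and 41.0 CPM in sh-Jmjd1a cells, a log2 fold change of 0.38 (SE 0.078, edgeR adjusted p = 1.86e-04). For both genes each knockdown library exceeded each control library. Lmnb2 was measured at 45.7, 43.8 and 42.3 CPM in sh-Empty and at 38.3, 40.7 and 36.0 CPM in sh-Jmjd1a cells, and its log2 fold change of −0.19 (SE 0.074) passed with an adjusted p of 0.0324 (edgeR). The Lmnb2 call was kept in 2 of the 6 fits that left out 1 library each, the adjusted p reaching 0.157 without sh-Jmjd1a replicate 3.

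Among the chromatin-binding members, Tmpo rose most. It was measured at 70.5, 80.1 and 75.5 CPM in sh-Empty and at 125, 122 and 123 CPM in sh-Jmjd1a cells, a log2 fold change of 0.71 (SE 0.055, edgeR adjusted p = 1.1e-11). Lbr was measured at 55.7, 53.7 and 58.0 CPM in sh-Empty and at 47.4, 51.3 and 51.0 CPM in sh-Jmjd1a cells. The Lbr groups were apart by a small gap, with a log2 fold change of −0.16 (SE 0.066, edgeR adjusted p = 0.0436), and the call was kept in 1 of the 6 fits that left out 1 library, with adjusted p up to 0.185 without sh-Empty replicate 3. Banf1 was measured at 59.1, 54.5 and 65.1 CPM in sh-Empty and at 62.2, 65.4 and 54.4 CPM in sh-Jmjd1a cells. Its groups overlapped throughout, with a log2 fold change of 0.02 (95% interval −0.13 to 0.17, edgeR adjusted p = 0.866). Exons of Tmpo and Sun2 overlap those of long noncoding genes on the opposite strand, and the share of such reads was not tested.

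**Figure D2:**
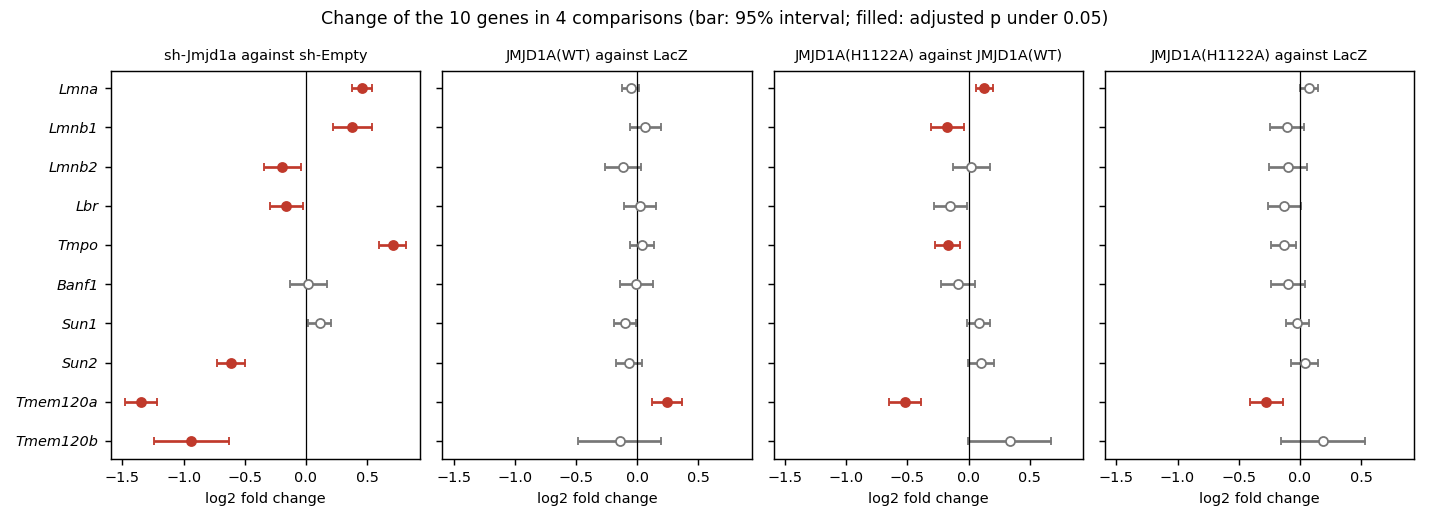
Log2 fold change of the 10 genes (y axis) in the 4 comparisons (panels), with points the edgeR estimate, bars its 95% interval and filled points an adjusted p under 0.05. On knockdown 8 points are filled, from −1.35 for Tmem120a to 0.71 for Tmpo, and Tmem120a is the one gene filled in each of the 4 panels. The study had listed Tmem120a by its calls in these samples, in every panel except JMJD1A(H1122A) against LacZ, so this is not independent of that choice.

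The second comparison asked which of the 10 genes move when JMJD1A(WT) is put back into cells that carry the hairpin. Tmem120a rose, by 18.6%, and the other 9 genes did not pass the test. Thus 1 of the 10 genes was called higher and 0 lower, where edgeR called 4.98% of 12557 genes higher, 4.52% lower and 9.50% in either direction. At an unadjusted p under 0.05 there were 1 higher and 1 lower, and DESeq2 also called 1 higher and 0 lower. Tmem120a was measured at 54.0, 53.5 and 56.1 CPM with LacZ and at 63.5, 68.5 and 62.9 CPM with JMJD1A(WT), so the groups were apart, with a log2 fold change of 0.25 (SE 0.061, 95% interval 0.12 to 0.37, edgeR adjusted p = 0.00451). Among the 9 genes not called, Sun1 had the smallest unadjusted p, with 166, 150 and 159 CPM with LacZ and 149, 145 and 148 CPM with JMJD1A(WT). These Sun1 libraries did not overlap, and the log2 fold change was −0.10 (SE 0.045, edgeR adjusted p = 0.173). Groups without overlap were thus found for 2 of the 10 genes, against 22.9% of all genes tested.

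Most of the changes on knockdown had no counterpart of like size in this comparison. Lmna was measured at 866, 813 and 853 CPM with LacZ and at 829, 796 and 812 CPM with JMJD1A(WT), and the 95% interval of its log2 fold change was −0.13 to 0.02. The knockdown interval with its sign turned, −0.54 to −0.37, lay apart from it. For Tmpo the interval was −0.06 to 0.14, for Lmnb1 −0.06 to 0.20, for Sun2 −0.17 to 0.04 and for Tmem120b −0.48 to 0.19, on the log2 scale. Of the 8 genes called on knockdown, 7 had an interval here that did not overlap the knockdown interval with its sign turned. The exception was Lbr, for which −0.11 to 0.15 overlapped 0.03 to 0.30. The knockdown estimate of Lbr with its sign turned, 0.163, still lay just above the upper bound of 0.152. Tmem120a itself, with an upper bound of 0.37, stayed short of 1.22 to 1.48.

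The third comparison set JMJD1A(H1122A) against JMJD1A(WT), which tests for dependence on the iron-binding site. Tmem120a fell by 30.3%, Lmnb1 by 11.3% and Tmpo by 11.2%, and Lmna rose by 9.29%. The test called 3 of the 10 genes lower and 1 higher, where edgeR called 11.7% of 12557 genes lower, 12.1% higher and 23.8% in either direction. Tmem120a was measured at 63.5, 68.5 and 62.9 CPM with JMJD1A(WT) and at 43.2, 45.3 and 46.8 CPM with JMJD1A(H1122A), a log2 fold change of −0.52 (SE 0.064, 95% interval −0.65 to −0.39, edgeR adjusted p = 1.29e-08). Each mutant library lay below each wild-type library, and the call was kept in each of the 6 fits that left out 1 library.

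The other 3 calls were smaller. Lmna was measured at 829, 796 and 812 CPM with JMJD1A(WT) and at 878, 858 and 928 CPM with JMJD1A(H1122A), with a log2 fold change of 0.13 (SE 0.035, edgeR adjusted p = 0.00543). Tmpo was measured at 129, 140 and 140 CPM with JMJD1A(WT) and at 115, 124 and 125 CPM with JMJD1A(H1122A), with a log2 fold change of −0.17 (SE 0.050, edgeR adjusted p = 0.00841). Lmnb1 was measured at 55.7, 54.8 and 50.8 CPM with JMJD1A(WT) and at 46.2, 46.9 and 49.0 CPM with JMJD1A(H1122A). The Lmnb1 groups were apart, but its log2 fold change of −0.17 (SE 0.066) lay at the threshold (edgeR adjusted p = 0.04998) and was kept in 1 of the 6 fits that left out 1 library. Leaving out JMJD1A(H1122A) replicate 3 took the adjusted p of Lmna to 0.0581. Tmpo lost its call without JMJD1A(H1122A) replicate 1 (adjusted p = 0.0946) and without JMJD1A(WT) replicate 3 (adjusted p = 0.0663).

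The SUN genes, Lbr, Lmnb2, Banf1 and Tmem120b did not pass in this comparison. The groups were without overlap for 7 of the 10 genes, against 37.1% of all genes tested, and these were the 4 called genes with Lbr, Sun1 and Sun2. Lbr was measured at 60.2, 54.9 and 56.3 CPM with JMJD1A(WT) and at 53.2, 51.1 and 50 CPM with JMJD1A(H1122A), with a log2 fold change of −0.15 (SE 0.066, edgeR adjusted p = 0.101). Tmem120b was measured at 6.76, 6.72 and 6.41 CPM with JMJD1A(WT) and at 10.3, 6.12 and 8.74 CPM with JMJD1A(H1122A). The wide scatter of the 3 mutant libraries left its log2 fold change of 0.34 with a 95% interval of −0.001 to 0.67 (edgeR adjusted p = 0.15), and without JMJD1A(H1122A) replicate 2 the estimate was 0.53 with an adjusted p of 0.0251.

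Against LacZ, JMJD1A(H1122A) cells had less Tmem120a, by 17.3%, and no other of the 10 genes passed. With 1 gene lower and 0 higher, the background was 4.46% lower, 4.78% higher and 9.24% in either direction of 12557 genes (edgeR). At an unadjusted p under 0.05 there were 2 lower and 1 higher, and DESeq2 called 1 lower and 0 higher. Tmem120a was measured at 54.0, 53.5 and 56.1 CPM with LacZ and at 43.2, 45.3 and 46.8 CPM with the mutant, a log2 fold change of −0.28 (SE 0.067, 95% interval −0.41 to −0.14, edgeR adjusted p = 0.00478). The 3 rescue comparisons share their samples, so this value and those above are not separate evidence. Groups without overlap were found for Tmem120a, Tmpo and Lmnb1, 3 of the 10 genes, against 25.1% of all genes. Tmpo was measured at 129, 141 and 130 CPM with LacZ and at 115, 124 and 125 CPM with the mutant, with a log2 fold change of −0.13 (SE 0.050, edgeR adjusted p = 0.0905).

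Ratios between related members were computed within each library, per kilobase of exon, and are given as a description, since they were chosen after the levels were seen. The ratio of Lmna to the sum of Lmnb1 and Lmnb2 was 6.76, 6.38 and 6.75 in sh-Empty and 8.30, 8.11 and 8.38 in sh-Jmjd1a libraries. It was 7.44, 7.11 and 7.69 with LacZ and 7.27, 6.81 and 7.22 with JMJD1A(WT), which overlap, and 8.38, 8.29 and 8.39 with JMJD1A(H1122A), above both. A-type lamin transcript was thus the more abundant in all 15 libraries.
The ratio of Sun1 to Sun2 was 0.772 ± 0.0355 (SD, n = 3) in sh-Empty and 1.28 ± 0.0623 in sh-Jmjd1a libraries. This order holds per kilobase of exon only, since in CPM Sun1 (140 to 148) was above Sun2 (117 to 129) in the sh-Empty libraries too. The ratio stayed above 1 in the rescue set, at 1.14 ± 0.0306 with LacZ, 1.11 ± 0.0225 with JMJD1A(WT) and 1.10 ± 0.0431 with JMJD1A(H1122A). Lmnb1 to Lmnb2 was 1.14 ± 0.0851 in sh-Empty and 1.70 ± 0.134 in sh-Jmjd1a libraries, and its rescue groups overlapped at means of 1.80, 2.08 and 1.78. In sh-Empty this order too holds per kilobase only, since in CPM Lmnb1 (32.9 to 35.3) was below Lmnb2 (42.3 to 45.7). Tmem120a exceeded Tmem120b in every library, by 21.7-fold at most in sh-Empty and by 7.74-fold at least with JMJD1A(H1122A).

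**Figure D3:**
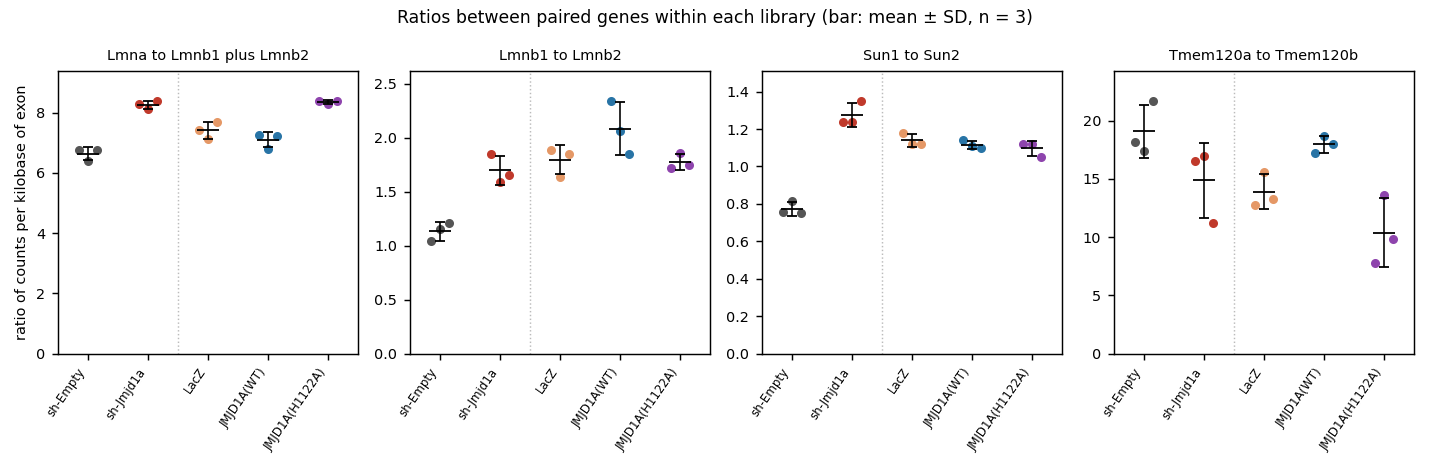
Ratios between related genes within each library (y axis, counts per kilobase of exon, from 0) by group (x axis), with points the libraries and bars the mean ± SD of 3. Sun1 to Sun2 rises from 0.772 in sh-Empty to 1.28 in sh-Jmjd1a cells, and Lmna to the B-type lamins is highest in sh-Jmjd1a and JMJD1A(H1122A) cells.

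Other genes of the nuclear envelope, from lists set out beside the 10 genes, also changed on knockdown. The largest rise was that of Syne1, the gene for nesprin-1, the outer membrane partner of the SUN proteins, at 9.25, 9.40 and 9.58 CPM in sh-Empty and 25.6, 26.8 and 29.7 CPM in sh-Jmjd1a cells. Its log2 fold change was 1.54 (SE 0.110, edgeR adjusted p = 2.22e-12). With Syne2 (0.62) and Syne3 (0.50), 3 of the 5 other LINC complex genes tested were called higher and 0 lower, by DESeq2 as well, where 22.3% of all genes were called higher and 23.9% lower by edgeR. The largest fall was that of Zmpste24, the gene for the protease that cleaves prelamin A to lamin A, at 193, 190 and 208 CPM in sh-Empty and 87.0, 83.2 and 89.6 CPM in sh-Jmjd1a cells. Its log2 fold change was −1.19 (SE 0.051, edgeR adjusted p = 3e-17), beside the rise of Lmna. Of the 6 prelamin processing genes 3 were called lower and 0 higher, the others being Rce1 (−0.51), the protease that trims the farnesylated end, and Fnta (−0.37), a farnesyltransferase subunit. DESeq2 also called 3 lower and 0 higher, and the same shares of all genes apply. At an unadjusted p under 0.05 the edgeR counts of these LINC and prelamin lists were again 3 higher and 0 lower, and 3 lower and 0 higher.

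Of 14 other inner membrane and LEM-domain genes tested, 4 were called higher and 1 lower, where 46.2% of all genes tested were called in either direction, and their median log2 fold change was 0.09. DESeq2 called 3 of them higher and 0 lower. Nemp2 rose most (0.99), followed by Nemp1 (0.48), Emd (0.38), the gene for emerin, and Lemd3 (0.24), and Ankle2, which acts with BAF as the nucleus reforms, fell (−0.16). Of 7 lamina and envelope regulators, 1 was called higher and 1 lower, against the same 46.2% of all genes. Prr14, which tethers heterochromatin to the lamina, rose (0.19) and Chmp7, which takes part in sealing the envelope, fell (−0.27). DESeq2 called 0 of the 7 higher and 1 lower, so the call of Prr14 was not kept there. Of 28 nuclear pore genes tested, 5 were called higher and 8 lower, with log2 fold changes from −0.35 for the membrane nucleoporin Pom121 to 0.56 for Aaas. That is also to be read against 46.2% of all genes, and DESeq2 called 4 pore genes higher and 4 lower. The median size of the change over the pore genes, 0.13, was below that over all genes tested, 0.22.

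With JMJD1A(WT) against LacZ, 0 of these 60 other envelope genes were called by edgeR in either direction, at an adjusted p under 0.05 (3 had an unadjusted p under 0.05, and DESeq2 called 0). Of all genes tested, edgeR called 9.50% in either direction in this comparison. Zmpste24 was measured at 99.0, 103 and 105 CPM with LacZ and at 107, 120 and 103 CPM with JMJD1A(WT). These values overlap, and those of Syne1 did as well, at 23.5, 23.4 and 19.7 CPM with LacZ and 20.9, 18.3 and 22.7 CPM with JMJD1A(WT). With JMJD1A(H1122A) against JMJD1A(WT), 7 of the 28 pore genes were called lower and 0 higher by edgeR, and 4 lower and 0 higher by DESeq2, where 11.7% of all genes were called lower and 12.1% higher by edgeR. At an unadjusted p under 0.05 the edgeR counts were 12 lower and 0 higher. The genes called were led by Nup205 (−0.21) and Nup155 (−0.16), scaffold proteins of the inner ring. In the same comparison the inner membrane gene Nrm (−0.34) and the BAF kinase gene Vrk1 (−0.28) were called lower, and Narf (0.20), whose product binds prelamin A, and Hdac3 (0.13), a deacetylase that acts at the lamina, were called higher. Nrm was 1 of 14 inner membrane genes tested and Narf 1 of 6 prelamin processing genes, while Vrk1 and Hdac3 were among 7 regulators. DESeq2 called 0 of the 14 inner membrane genes, and 1 lower and 0 higher of the 7 regulators. Thus Nrm and Hdac3 were called by edgeR only. Against LacZ, 3 of the 28 pore genes were called lower in the mutant and 0 higher, by edgeR and by DESeq2. They were Nup54 (−0.30), Nup155 (−0.18) and Nup205 (−0.16), and 0 genes of the other envelope lists were called. In that comparison edgeR called 4.46% of all genes lower and 4.78% higher.

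**Figure D4:**
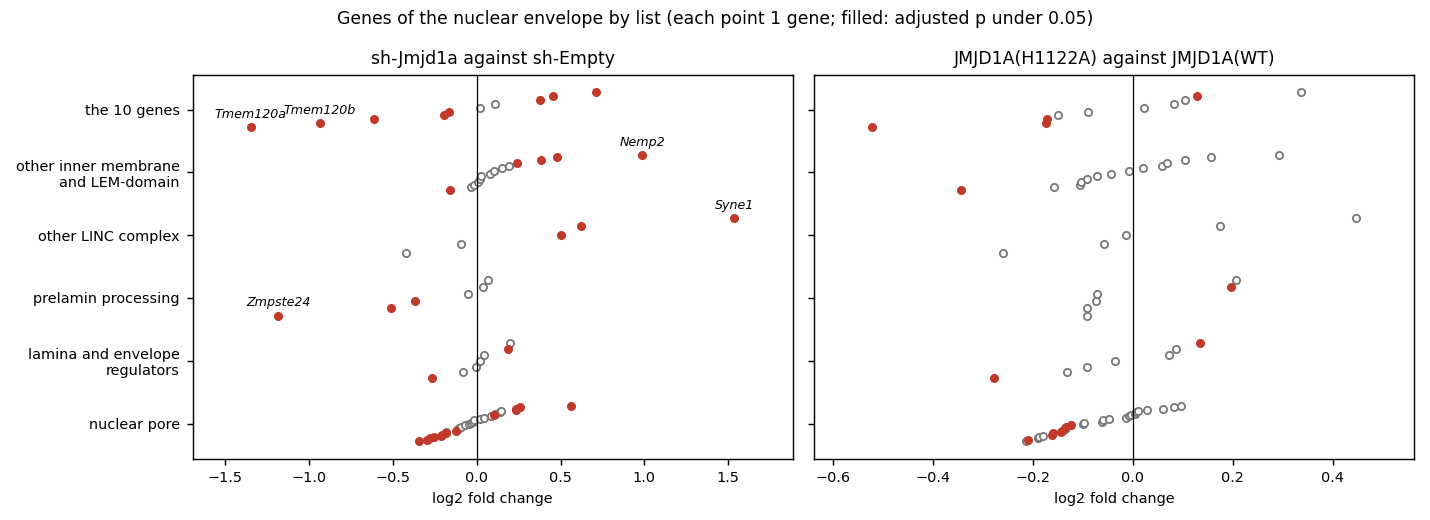
Log2 fold change (x axis) of each gene of 6 envelope lists (y axis) for sh-Jmjd1a against sh-Empty (left) and JMJD1A(H1122A) against JMJD1A(WT) (right, with a narrower scale), each point 1 gene, filled where the adjusted p was under 0.05. On knockdown Syne1 (1.54) and Zmpste24 (−1.19) lie farthest out beside Tmem120a (−1.35), while the pore genes stay between −0.35 and 0.56.

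Lamin B1 and LAP2 transcripts are known to vary with the cell cycle, so cycle genes were measured beside them. On knockdown 18 of 20 mitosis genes were called higher and 0 lower (edgeR), led by Cenpe (0.72), and 13 of 20 DNA replication genes were called higher, led by Prim1 (0.89), with Rrm2 lower (−0.14). Of all genes tested, 22.3% were called higher and 23.9% lower, and DESeq2 called 16 mitosis and 13 replication genes higher and 0 of either list lower. At an unadjusted p under 0.05 edgeR also had 0 mitosis genes lower, here and in the mutant against the wild type. The summed level of the mitosis list was 1700 to 1780 CPM in sh-Empty and 2180 to 2240 CPM in sh-Jmjd1a libraries, and that of the replication list 1340 to 1360 and 1860 to 1930 CPM. These lists moved with the rise of Tmpo, Lmna and Lmnb1, and their part in it was not tested. So did most of the preadipocyte and fibroblast markers, of which 6 of 8 were called higher and 1, Dlk1 (−0.76), lower. Their summed level was 12600 to 12900 CPM in sh-Empty and 21000 to 22300 CPM in sh-Jmjd1a libraries. Large parts of it were Col3a1 (mean 4790 and 8700 CPM), Col1a2 (3030 and 6070) and Col1a1 (1170 and 3120). In the rescue set the summed level was 25200 to 25500 CPM with LacZ, 25300 to 26400 CPM with JMJD1A(WT) and 25600 to 26900 CPM with JMJD1A(H1122A). Dlk1 was called higher with JMJD1A(WT) against LacZ (0.43) and lower in the mutant against JMJD1A(WT) (−0.96) and LacZ (−0.53). The part of these markers was not tested either. In JMJD1A(H1122A) against JMJD1A(WT), where Tmpo and Lmnb1 fell, 4 mitosis genes were called higher, led by Kif20a (0.32), and 0 lower, and of the replication genes 5 were called lower, led by Ccne1 (−0.34), and 2 higher, led by Pcna (0.52). The share of all genes was 11.7% lower and 12.1% higher, and DESeq2 called 4 mitosis genes higher and 0 lower, and 3 replication genes lower and 2 higher. Adipocyte markers were called lower for 8 of 8 on knockdown, higher for 8 of 8 with JMJD1A(WT) against LacZ and lower for 8 of 8 in both comparisons of the mutant. These were also the directions of Tmem120a in the 4 comparisons. Of all genes tested, edgeR called 23.9% lower on knockdown and 4.98% higher with JMJD1A(WT) against LacZ. It called 11.7% lower in the mutant against JMJD1A(WT) and 4.46% lower against LacZ. The study's list that holds Tmem120a also holds Pparg, Cebpa, Fabp4, Cidec and Retn, so their match with Tmem120a is not independent of that choice. The part of the adipocyte markers in the change of Tmem120a was not tested.

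The genes whose pattern was most like each member were found by Pearson correlation of log2 CPM over the 15 libraries, among 10213 genes. These correlations are descriptions, since the sh-Empty libraries stand apart for many genes and libraries of a group share their condition. Tmem120a was most like Pnpla2 (r = 0.990 over 15 libraries and 0.927 over the 12 without sh-Empty), which encodes the triglyceride lipase ATGL, then Zfp706 (0.988) and Hacd2 (0.988), which encodes an enzyme of fatty acid elongation. Tmpo was most like Fam111a (0.988), the replication helicase gene Mcm6 (0.987) and Hif1a (0.987), which encodes an oxygen-regulated transcription factor, and these fell to 0.870, 0.797 and 0.816 without sh-Empty. Lmna was most like Gpr153 (0.983), Serpinf1 (0.979) and the collagen prolyl hydroxylase gene P4ha1 (0.975), and Lmnb1 was most like Gpc1 (0.970), the cohesin gene Smc1a (0.965) and the collagen gene Col3a1 (0.961). Sun2 was most like Pcbp1 (0.957), Ltbp2 (0.955) and the nuclear receptor gene Rxra (0.954), which gave 0.786, 0.811 and 0.753 without sh-Empty. With each group's mean taken out, the values for Sun2 were 0.699, 0.147 and 0.225. In the order given above, they were then 0.502, 0.828 and 0.487 for Tmem120a and 0.634, 0.621 and 0.657 for Tmpo. For Lmna they were 0.797, 0.641 and 0.498, and for Lmnb1 0.418, 0.633 and 0.537. Over the 15 libraries, the highest values for Tmem120b (Tmem268, 0.926), Sun1 (Glg1, 0.894), Lmnb2 (Vapb, 0.856), Lbr (Ltn1, 0.828) and Banf1 (Zfp24, 0.751) were lower.

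Among the 10 genes themselves, Lmnb1 and Tmpo had r = 0.932 over the 15 libraries and 0.635 over the 12 without sh-Empty. Lmna and Tmem120a had r = −0.939 and −0.494 over the same sets. Lmna and Tmpo had r = 0.877 over the 15 libraries but −0.493 over the 12 without sh-Empty, so their shared pattern lay in the distance of sh-Empty from the other groups.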

How the data were processed

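RNA was measured in 15 libraries of 3T3-L1 cells, grouped by their labels into 5 conditions. Per the labels and the study's methods, reads were cleaned by fastp, mapped to mm9 by HISAT2 and assigned to genes by featureCounts. The files the authors deposited hold whole-number counts for each gene that were not normalized. The study's methods name a directional kit and the labels a NEBNext Ultra kit, and the strand setting of the counting is not given in the sources used here, so reads of genes that overlap on opposite strands could be shared. Symbols came from a RefSeq table of GRCm38.p6, used for names, and positions from GENCODE M1 on NCBIM37.

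Counts were scaled by TMM and filtered by filterByExpr (minimum count 10), and tested with the quasi-likelihood F test of edgeR 4.0.16 (R 4.3.3, robust, bias-adjusted deviances), and p-values were adjusted by Benjamini-Hochberg with a threshold of 0.05. The knockdown set (6 libraries, 12272 genes) and the rescue set (9 libraries, 12557 genes) were fitted apart, and adjusted p-values cover all genes of a fit. Levels are TMM-scaled CPM within each set, while the correlations used log2 CPM scaled by TMM over all 15 libraries together. The members and lists were chosen with earlier results of these data known. The genes named were the 10 members and, from other lists, the 2 with the largest called change in each direction (1 for the cycle lists), or all called where a list had 5 or fewer. Planned protein features were not analysed here.

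The test was checked on simulated data with the real means and depths, in which 200 genes were changed 2-fold. It recovered 88.5% of them in the knockdown comparison. In the comparisons of JMJD1A(WT) with LacZ, of JMJD1A(H1122A) with JMJD1A(WT) and of JMJD1A(H1122A) with LacZ it recovered 92.2%, 92.0% and 90.0%. The mean percentages of false calls, in the same order, were 4.96%, 6.21%, 4.64% and 4.9%. Among the members, only Tmem120a on knockdown (−1.35 on the log2 scale) changed by more than 2-fold. In the rescue set the largest member change was −0.52, for Tmem120a in JMJD1A(H1122A) against JMJD1A(WT). Changes under 2-fold were not simulated, so the recovery does not show how often such changes were missed among members not called. Alternatives were other size factors, filters and dispersion settings, DESeq2 1.42.0, other sets of libraries in the fit, a replicate block and each library left out.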

Additional observations from a re-analysis of the deposited data

How the results depend on the processing

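The direction and call of Tmem120a were kept in each of the 4 comparisons under every alternative run. Of 590 values of the members' log2 fold changes under alternatives, 546 kept direction and call, 27 lost the call, 8 gained it and 9 changed sign. The values that changed sign belonged to genes not called, and each came from leaving out 1 library. On knockdown Banf1 ranged from −0.038 to 0.100, and was negative (−0.034 and −0.038) with replicate 2 of either group left out. In JMJD1A(WT) against LacZ, Banf1 ranged from −0.048 to 0.056 and was positive without LacZ replicate 2 (0.056) or JMJD1A(WT) replicate 3 (0.054), and Lbr ranged from −0.037 to 0.075 and was negative without LacZ replicate 3 (−0.037) or JMJD1A(WT) replicate 1 (−0.015). Sun1 in JMJD1A(H1122A) against LacZ ranged from −0.057 to 0.016 and was positive without LacZ replicate 1 (0.016). Lmnb2 in JMJD1A(H1122A) against JMJD1A(WT) ranged from −0.027 to 0.081 and was negative without JMJD1A(H1122A) replicate 3 (−0.011) or JMJD1A(WT) replicate 1 (−0.027). Leaving out 1 library each gave 6 to 8 members called on knockdown, 1 in both comparisons with LacZ, and 2 to 4 in JMJD1A(H1122A) against JMJD1A(WT), with 2 without JMJD1A(H1122A) replicate 1 or 3. Of all genes, 674 to 1046 were then called in JMJD1A(H1122A) against LacZ, with 764 without LacZ replicate 3 and 674 without JMJD1A(H1122A) replicate 1, against 1160 from all libraries.

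The deviations of libraries with the same replicate number had correlations of −0.044 to 0.054, none over 0.1. The highest correlation with another number was 0.065. In each rescue comparison the value for the same number was the higher one for replicates 1 and 2, and the lower one for replicate 3. For replicate 1 of JMJD1A(H1122A) against LacZ it was 0.054, against −0.008 at most with another number. Such small values from 3 libraries per group cannot show whether the samples were paired. With a replicate block, 2 members in place of 1 were called in JMJD1A(H1122A) against LacZ, Tmpo being added at −0.14 (edgeR adjusted p = 0.045), and Lbr lost its knockdown call (adjusted p = 0.0623). DESeq2 did not call Lmnb2 (adjusted p = 0.0852) or Lbr (0.113) on knockdown, nor Lmnb1 in JMJD1A(H1122A) against JMJD1A(WT) (0.0646). Other size factors moved the median of all genes by at most 0.007 on the log2 scale. The precision was lowest for Tmem120b, the gene with the fewest counts.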
